A study of Mus musculus with 9 samples.

Results

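Interferons are secreted proteins that alert cells to infection, and the genes they switch on encode antiviral effectors, sensors of foreign nucleic acid, guanylate-binding proteins (GBPs) and the machinery that shows peptides to T cells. The levels of 43 such genes, listed by symbol, were examined in substantia nigra lysate of sham-operated wild type C57BL/6 mice. The deposited table held 42 of them, among 20591 genes in all, and all 42 were tested; Zbp1 was not analysed here. The rule that lists them uses what the genes are known to do and no measured value, although the choice was made with earlier results of these data known.

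The 1 day group had undergone 1 fast, the 1 week group had undergone the intermittent regimen with 3 fasts, and the ad libitum group had free access to food for 1 week. There were 3 libraries in each group. The mice were 12 weeks old at the start. Each fast ran for 24 hours from 2 hours before lights off, and control mice changed cages on the same schedule. All 3 groups carry the sham operation, and no group in this series carries a disease model. The labels do not state that the libraries came from separate animals, so p-values measure the spread between libraries, which may be partly technical. How long after the last fast tissue was taken is not stated in those labels.

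Interferons bind receptors at the cell surface, and the kinases held there activate transcription factors. The factors activated by type I interferon are known to bind the interferon-stimulated response element (ISRE) in promoters. Those activated by interferon gamma bind the gamma-activated site (GAS), and IRF1, itself a target, extends the response to the GBPs and to class I presentation. In the brain, microglia and endothelium are known for responding strongly, and interferon-induced genes are kept at a low tonic level in healthy tissue.

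Library totals ranged from 36109995 to 54248856 counts, and a member had between 8 and 2714 counts in a library. Levels are given as CPM, counts scaled to library size with TMM factors, which correct for differences in library composition. All 8 dopaminergic neuron markers listed were in the table, with summed levels of 692 to 1453 CPM for 1 day, 1095 to 1723 CPM for 1 week and 1062 to 1404 CPM in the ad libitum group. Markers of neighbouring tissue were uneven, with a choroid plexus sum of 395 CPM in ad libitum replicate 3 and a cortical neuron sum of 598 CPM in 1 week replicate 3. In an earlier account of these data 1 day replicate 2 and 1 week replicate 2 stood out. They differed from the other libraries of their groups in a shared way (Pearson r = 0.489 between their deviations, over 16333 genes, which are not independent), and the results that rest on them most are also given without them. By counts set against library totals, ad libitum replicate 2 differed most. Its chi-square per gene was 164 to 324 against each other library, where no other pair exceeded 161. Its TMM factor was 0.897, against 0.975 to 1.03 in the others. It is not among the libraries said below to stand apart.

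The promoters of members named below show the sequences that the interferon-activated factors are known to read. Windows are from RefSeq on build GRCm38.p6, on the strand of the gene and 5′ to 3′, and were picked from 250 bases before to 50 bases after the start. Capitals mark matches to the ISRE searched, which is GAAA followed after 2 bases of any kind by another GAAA; on the other strand a match starts and ends with TTTC. Isg15 lies at chr4:156200830-156200941 (minus strand), Ifit1 at chr19:34640740-34640858 (plus), Bst2 at chr8:71537542-71537647 (minus), Gbp2 at chr3:142620559-142620658 (plus) and Gbp3 at chr3:142559954-142560059 (plus).
Isg15: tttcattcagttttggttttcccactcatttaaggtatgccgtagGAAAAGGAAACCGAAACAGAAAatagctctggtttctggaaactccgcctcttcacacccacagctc
Ifit1: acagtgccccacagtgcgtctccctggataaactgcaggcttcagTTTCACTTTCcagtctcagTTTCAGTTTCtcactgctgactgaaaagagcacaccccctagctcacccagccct
Bst2: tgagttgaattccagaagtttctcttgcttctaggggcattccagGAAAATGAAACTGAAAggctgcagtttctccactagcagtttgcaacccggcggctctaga
Gbp2: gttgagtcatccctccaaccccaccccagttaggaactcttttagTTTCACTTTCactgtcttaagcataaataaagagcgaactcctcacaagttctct
Gbp3: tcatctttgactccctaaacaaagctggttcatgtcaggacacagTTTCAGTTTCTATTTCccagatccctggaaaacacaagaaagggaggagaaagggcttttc
Isg15 had 3 overlapping matches, Ifit1, Bst2 and Gbp3 had 2 each, and Gbp2 had 1.

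The neighbouring paralogs Ifit3 and Ifit3b are shown because their counts are hard to separate. The window of Ifit3 at chr19:34583328-34583461 (plus strand) and that of Ifit3b at chr19:34607724-34607857 (plus strand) did not differ at any of 134 bases, so the Ifit3 window stands for both.
Ifit3: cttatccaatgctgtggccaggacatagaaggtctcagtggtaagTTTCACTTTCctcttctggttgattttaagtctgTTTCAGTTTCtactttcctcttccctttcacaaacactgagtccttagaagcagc
Irf1 at chr11:53769879-53769977 (plus strand) and Psmb8 at chr17:34198053-34198151 (plus strand) held no ISRE match in the searched region. Here capitals mark the GAS letters TTCNNNGAA.
Irf1: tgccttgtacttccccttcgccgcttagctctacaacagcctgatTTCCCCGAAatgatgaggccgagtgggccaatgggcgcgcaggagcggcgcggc
Psmb8: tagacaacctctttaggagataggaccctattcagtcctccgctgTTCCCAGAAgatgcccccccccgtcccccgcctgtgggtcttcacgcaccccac

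The ISRE was found in the window of 16 of the 33 members that had a promoter entry (48.5%), against 3.99% of all 27025 genes and 3.44% of all 32851 promoters. The GAS letters were in 10 of the 33 (30.3%), against 9.55% of genes and 8.3% of promoters. Both strands were searched, a gene counted when any of its promoters matched, and the sets overlap, as in Bst2 and Gbp7. No entry was at hand for 9 members. A match is only a run of letters, not a measured binding site.

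No member passed the test at an adjusted p of 0.05 in any of the 4 comparisons (edgeR's quasi-likelihood test, Benjamini-Hochberg adjusted over 20535 genes). The members' levels nevertheless lay mostly on the low side of the ad libitum group in the fasted groups. For 1 day against ad libitum the log2 fold change was below 0 for 38 of 42 members, with a median of -0.35, whereas 49.9% of all genes were below 0. An unadjusted p under 0.05 was reached by 15 of 42 members (35.7%), all lower, against 4.9% of all genes on the lower side. All 3 libraries of the 1 day group lay below all 3 ad libitum libraries for 19 members (45.2%), against 10.3% of all genes. The test itself called 12 genes in this comparison, 0.0584% of those tested. The count of 15 became 7 without 1 day replicate 3 and 8 without ad libitum replicate 2.

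For 1 week against ad libitum, 37 of 42 log2 fold changes were below 0, with a median of -0.31. An unadjusted p under 0.05 was reached by 10 members (23.8%), all lower, against 4.9% of all genes. The groups did not overlap for 16 members (38.1%), all lower in the 1 week group, against 11.5% of all genes. The test called 63 genes, or 0.307%. Both comparisons share the ad libitum libraries, so their counts are not independent of each other.

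With the 6 fasted libraries set against the 3 ad libitum libraries, 37 of 42 log2 fold changes were below 0 and the median was -0.33. An unadjusted p under 0.05 was reached by 16 members (38.1%), all lower, against 5.95% of all genes. All 6 fasted libraries lay below all 3 ad libitum libraries for 13 members (31%), against 4.87% of all genes. These were Irf1, Nlrc5, Isg15, Ifit1, Oasl2, Rtp4, Xaf1, Trim30a, Gbp2, Gbp3, Gbp4, Psmb9 and B2m. The test called 80 genes, 0.39% of those tested. In lysate, fewer cells of a type and less RNA per cell cannot be told apart.

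The choice of tool changed the calls. DESeq2 passed Gbp3 (adjusted p = 0.0488), Gbp4 (0.00601) and Isg15 (0.0264) for 1 day, and Gbp2 (0.0243), Gbp3 (0.000643) and Gbp4 (0.00981) for 1 week. Limma's voom with quality weights passed Gbp4 for 1 day (adjusted p = 0.0439), and for 1 week it passed Gbp2 (0.0468), Gbp3 (0.0269) and Gbp4 (0.0463). For both fasted groups, DESeq2 passed Gbp2, Gbp3, Gbp4, Ifit1 and Isg15, and voom passed the same genes except Ifit1.

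**Figure D1:**
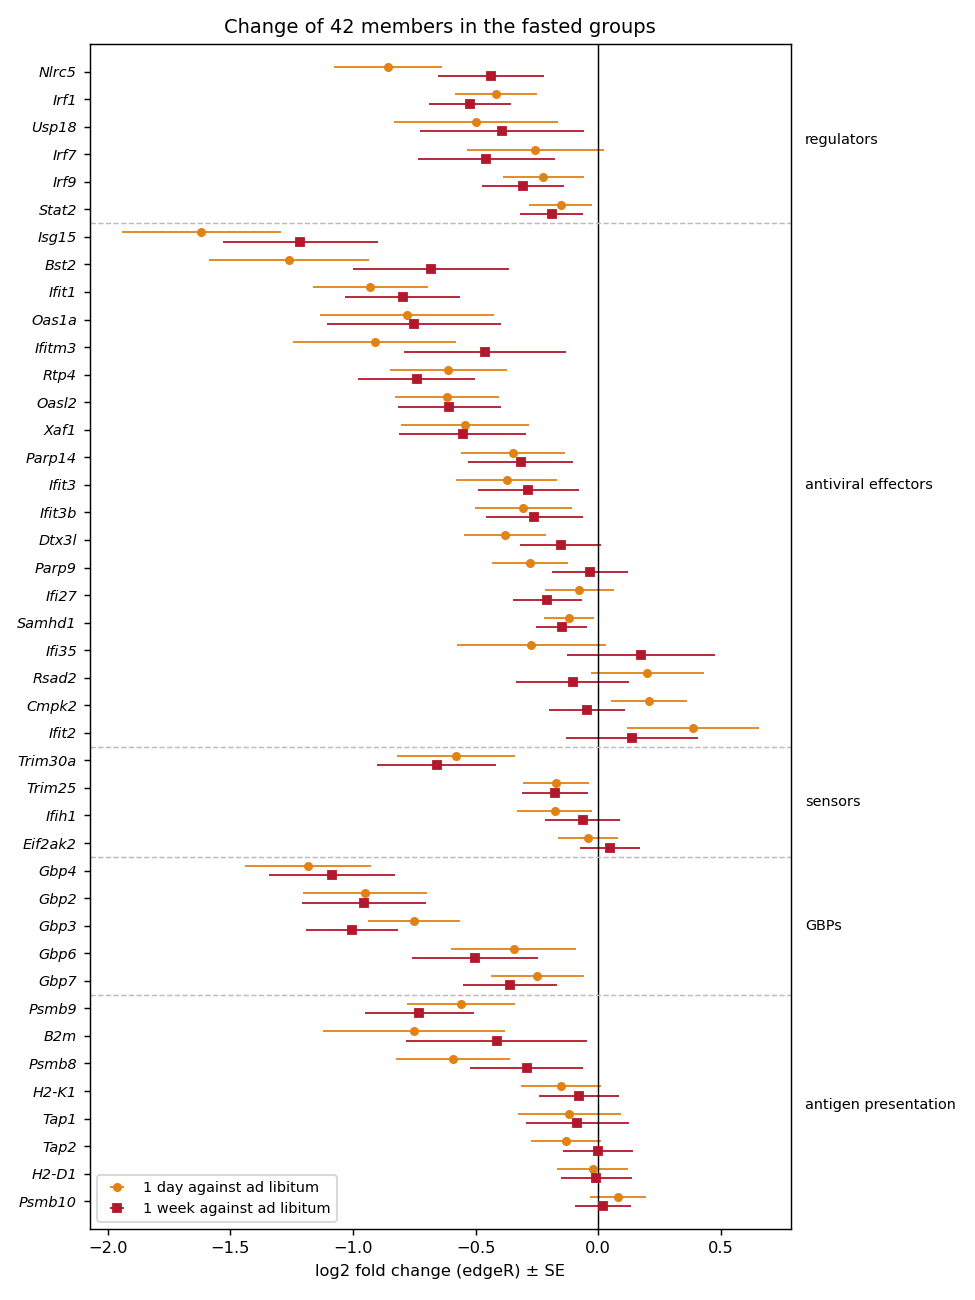
Log2 fold change of each of the 42 members from edgeR for 1 day (circles) and 1 week (squares) against ad libitum, with bars of 1 standard error, grouped by role. Most points lie left of 0. Isg15, Bst2 and Gbp4 lie farthest left for 1 day and Isg15, Gbp4 and Gbp3 for 1 week, and Ifit2, Psmb10, Tap2 and H2-D1 lie near or right of it.

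The GBPs are large GTPases that coat the vacuoles of intracellular pathogens, and all 5 listed had log2 fold changes below 0 in both fasted groups. Their median was -0.75 for 1 day, -0.96 for 1 week and -0.88 for both fasted groups. Gbp2, Gbp3 and Gbp4 had an unadjusted p under 0.05 in each of these comparisons. Gbp2 was at 2.31, 2.35 and 1.45 CPM in the 1 day libraries and 1.95, 1.5 and 2.63 CPM in the 1 week libraries, against 3.80, 3.96 and 4.05 CPM in the ad libitum libraries. Gbp3 was at 2.20, 2.22 and 1.89 CPM in the 1 day libraries and 2.02, 1.61 and 1.66 CPM in the 1 week libraries, against 3.15, 3.50 and 3.99 CPM in the ad libitum libraries. Gbp4 was at 1.5, 1.86 and 1.11 CPM in the 1 day libraries and 2.02, 1.42 and 1.32 CPM in the 1 week libraries, against 3.49, 2.81 and 3.83 CPM in the ad libitum libraries. For these 3 genes every fasted library lay below every ad libitum library. The tightest of the ad libitum groups was that of Gbp2, at 3.94 ± 0.13 CPM (SD, n = 3).

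The level of Gbp4 in the 1 day group was 0.440 times the ad libitum level (log2 fold change -1.18 ± 0.26 SE, edgeR adjusted p = 0.200). In the 1 week group it was 0.471 times that level (-1.09 ± 0.26, adjusted p = 0.138). Gbp3 was at 0.594 times in the 1 day group (-0.75 ± 0.19, adjusted p = 0.320) and 0.499 times in the 1 week group (-1.0 ± 0.19, adjusted p = 0.0672). Gbp2 was at 0.517 times in the 1 day group (adjusted p = 0.359) and 0.516 times in the 1 week group (adjusted p = 0.179). With both fasted groups together, the adjusted p was 0.0531 for Gbp3, 0.0625 for Gbp4 and 0.115 for Gbp2. These lie close to the threshold, and beside the other tools 1 setting moved Gbp3 past it: a filter of 1 CPM in at least 6 libraries gave 0.0489. Gbp4 passed without 1 day replicate 2 (0.0410) and without 1 week replicate 1 (0.0472). Over all alternatives the adjusted p of Gbp4 for both fasted groups ran from 0.000454 to 0.364, and that of Gbp3 from 0.000322 to 0.346.

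Gbp6 and Gbp7 differed less. Gbp6 reached 6.20 CPM in 1 day replicate 2 against 3.37 to 3.39 CPM in the other 1 day libraries, and its ad libitum libraries were at 4.94 to 6.07 CPM. Gbp7 was at 4.52 to 6.89 CPM in the 1 day libraries and 4.55 to 6.04 CPM in the 1 week libraries, against 6.08 to 7.24 CPM in the ad libitum libraries. Both overlapped with the ad libitum group for 1 day and lay below it for 1 week. With 1 day replicate 2 left out, all 5 GBPs reached an unadjusted p under 0.05 for 1 day, and likewise with 1 week replicate 2 left out too. The GBP family holds near-identical copies, so the split of reads between its members is uncertain.

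**Figure D2:**
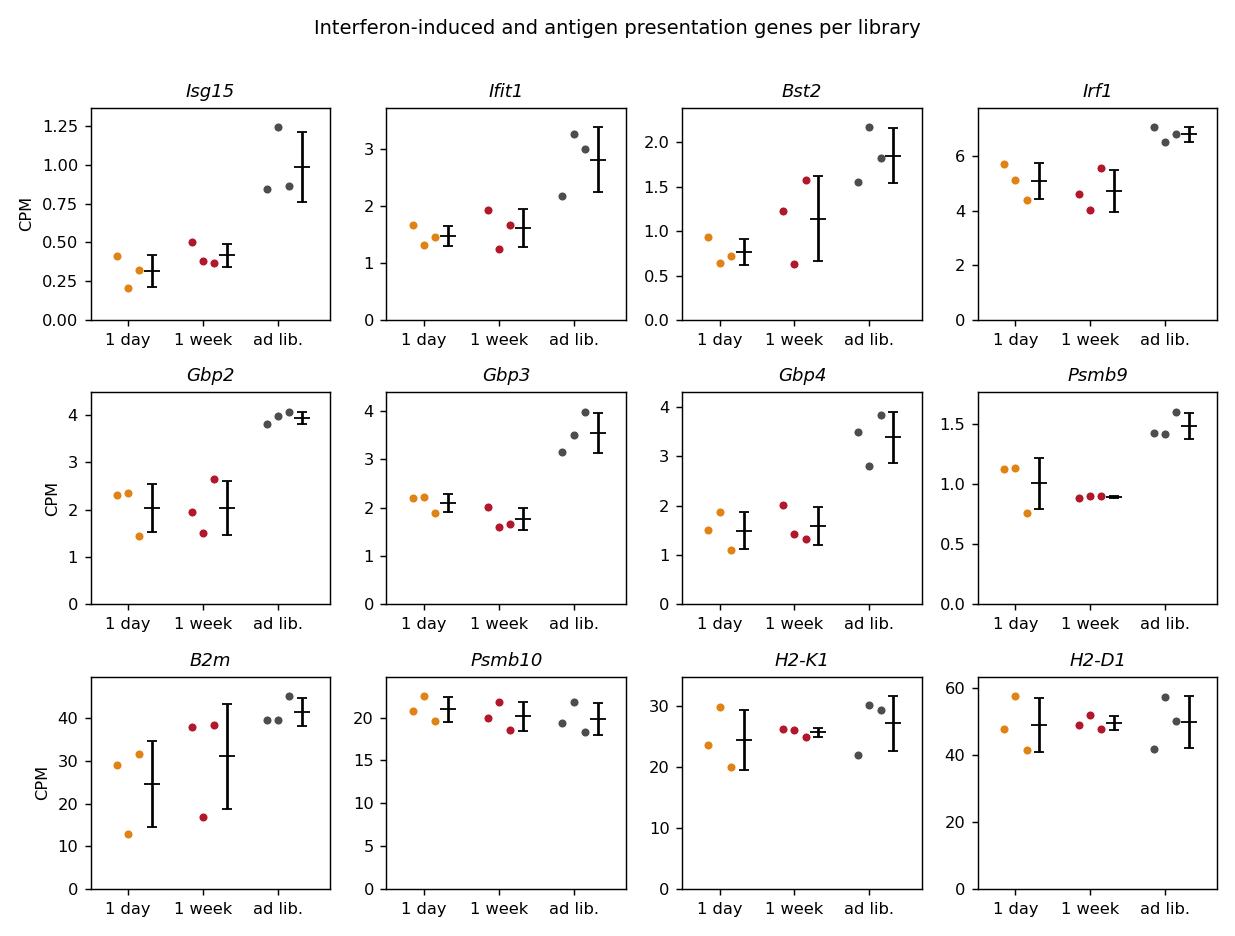
Level (CPM, linear axes from 0) of 12 members in each library, with the group mean and SD beside the points, for the 1 day, 1 week and ad libitum groups from left to right. The fasted libraries of Gbp2, Gbp3, Gbp4, Isg15, Ifit1, Irf1, Psmb9 and B2m lie below all ad libitum libraries, and those of Psmb10, H2-K1 and H2-D1 overlap with them.

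A further 12 GBPs and immunity-related GTPases (IRGs), which act on the same vacuoles and were listed apart from the members, were in the table of 15 listed. All 12 had log2 fold changes below 0 in each fasted group, with medians of -0.64 for 1 day and -0.72 for 1 week. None passed the test, and an unadjusted p under 0.05 was reached by 7 of 12 for 1 day, 6 for 1 week and 8 for both fasted groups, all lower, where 4.9%, 4.9% and 5.95% of all genes were lower at that p. The smallest p for both fasted groups belonged to the IRG Tgtp2, with 0.639 ± 0.242 CPM for 1 day and 0.583 ± 0.143 CPM for 1 week, against 1.4 ± 0.310 CPM in the ad libitum group (SD, n = 3 each; edgeR adjusted p = 0.118). Gbp11 followed at 0.974 ± 0.209 CPM for 1 day and 0.939 ± 0.305 CPM for 1 week, against 1.83 ± 0.0746 CPM in the ad libitum group (adjusted p = 0.139). The IRG Igtp was at 2.10 ± 0.133 CPM for 1 day and 2.17 ± 0.294 CPM for 1 week, against 3.23 ± 0.0209 CPM in the ad libitum group (adjusted p = 0.151). All 6 fasted libraries lay below all 3 ad libitum libraries for each of these 3 genes. The 1 day count of 7 became 4 when 1 day replicate 3, ad libitum replicate 2 or ad libitum replicate 3 was left out, and 4 with the filter of 1 CPM.

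Among the 19 antiviral effectors, 7 had an unadjusted p under 0.05 for 1 day, 4 for 1 week and 8 for both fasted groups, all lower, where 4.9%, 4.9% and 5.95% of all genes were lower at that p. Their median log2 fold change was -0.37 for 1 day and -0.28 for 1 week. Isg15 encodes a ubiquitin-like protein that is attached to viral and host proteins, and it had the largest fold change of any member. It was at 0.416, 0.207 and 0.323 CPM in the 1 day libraries and 0.505, 0.382 and 0.370 CPM in the 1 week libraries, against 0.848, 1.24 and 0.867 CPM in the ad libitum libraries. All fasted libraries lay below all ad libitum libraries, on few reads: its counts ran from 8 to 43 per library. The level was 0.326 times that of the ad libitum group in the 1 day group (log2 fold change -1.62 ± 0.33 SE, adjusted p = 0.165) and 0.431 times in the 1 week group (-1.21 ± 0.32, adjusted p = 0.174). With both fasted groups together the adjusted p was 0.0625, and it ran from 0.00662 to 0.335 over the alternatives.

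Ifit1 binds viral RNA that lacks the methylated cap of host messages. It was at 1.66, 1.32 and 1.45 CPM in the 1 day libraries and 1.93, 1.25 and 1.66 CPM in the 1 week libraries, against 2.18, 3.27 and 3.01 CPM in the ad libitum libraries. The groups did not overlap, and the fold was 0.525 for 1 day (adjusted p = 0.325) and 0.576 for 1 week (adjusted p = 0.231). Its relatives overlapped between groups. Ifit3 was at 8.52, 11.2 and 7.26 CPM in the 1 day libraries and 10.1, 8.97 and 9.5 CPM in the 1 week libraries, against 8.84, 14.5 and 11.5 CPM in the ad libitum libraries. Ifit3b was at 3.80, 6.07 and 5.40 CPM in the 1 day libraries and 5.25, 6.03 and 4.46 CPM in the 1 week libraries, against 6.27, 5.84 and 6.72 CPM in the ad libitum libraries. With the counts of this pair summed, the log2 fold change was -0.35 for 1 day (adjusted p = 0.542) and -0.28 for 1 week (adjusted p = 0.578). Ifit2, a partner of Ifit1 and Ifit3 in a protein complex, was at 18.8 to 34.1 CPM in the 1 day libraries and 13.6 to 25.6 CPM in the 1 week libraries, against 16.4 to 21.9 CPM in the ad libitum libraries. Its highest library was 1 day replicate 2. The log2 fold change was 0.39 for 1 day, and without that library it was 0.11.

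Bst2, or tetherin, holds budding virus particles at the cell surface. It was at 0.935, 0.645 and 0.715 CPM in the 1 day libraries and 1.23, 0.627 and 1.57 CPM in the 1 week libraries, against 1.55, 2.17 and 1.82 CPM in the ad libitum libraries. All 1 day libraries lay below the ad libitum libraries, whereas 1 week replicate 3 lay among them. The fold was 0.417 for 1 day (log2 fold change -1.26 ± 0.33 SE, adjusted p = 0.335) and 0.623 for 1 week (-0.68 ± 0.32, adjusted p = 0.464). Without 1 day replicate 2 and 1 week replicate 2 the 1 week value was -0.39.

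Ifitm3, which blocks the fusion of viruses in endosomes, was at 4.97, 4.67 and 2.74 CPM in the 1 day libraries and 6.02, 4.09 and 6.79 CPM in the 1 week libraries, against 4.5, 10.4 and 8.38 CPM in the ad libitum libraries. Here ad libitum replicate 1 was as low as the fasted libraries. The log2 fold change was -0.91 ± 0.33 for 1 day (adjusted p = 0.492) and -0.46 ± 0.33 for 1 week (adjusted p = 0.663).

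Oas1a and Oasl2 belong to the family of oligoadenylate synthetases, which detect double-stranded RNA. Oasl2 was at 3.41, 3.36 and 2.79 CPM in the 1 day libraries and 3.50, 2.73 and 3.37 CPM in the 1 week libraries, against 3.78, 6.16 and 4.72 CPM in the ad libitum libraries. Oas1a was at 0.436, 0.413 and 0.300 CPM in the 1 day libraries and 0.343, 0.273 and 0.555 CPM in the 1 week libraries, against 0.460, 0.810 and 0.715 CPM in the ad libitum libraries. Oasl2 did not overlap between the fasted and ad libitum libraries, and Oas1a did through 1 week replicate 3. The fold of Oasl2 was 0.652 for 1 day (adjusted p = 0.473) and 0.656 for 1 week (adjusted p = 0.316), and that of Oas1a was 0.583 for 1 day (adjusted p = 0.542) and 0.594 for 1 week (adjusted p = 0.468). Oas1a has close paralogs, and its counts ran from 10 to 33 per library.

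Rtp4, an interferon-induced chaperone of membrane receptors, was at 1.27, 1.19 and 0.922 CPM in the 1 day libraries and 1.28, 0.845 and 0.947 CPM in the 1 week libraries, against 1.57, 2.00 and 1.60 CPM in the ad libitum libraries. Xaf1, which promotes cell death, was at 5.30, 3.20 and 5.12 CPM in the 1 day libraries and 5.73, 3.05 and 4.71 CPM in the 1 week libraries, against 6.42, 5.87 and 7.56 CPM in the ad libitum libraries. Every fasted library of both genes lay below the ad libitum libraries. The fold of Rtp4 was 0.655 for 1 day (adjusted p = 0.516) and 0.599 for 1 week (adjusted p = 0.276), and that of Xaf1 was 0.687 for 1 day (adjusted p = 0.544) and 0.682 for 1 week (adjusted p = 0.467). In Xaf1 the lowest libraries were 1 day replicate 2 and 1 week replicate 2; without them its log2 fold change was -0.35 for 1 day and -0.33 for 1 week, in place of -0.54 and -0.55.

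Dtx3l, Parp9 and Parp14 are neighbours in the genome, and their proteins modify others with ubiquitin or ADP-ribose. Dtx3l was at 7.77, 7.15 and 7.10 CPM in the 1 day libraries and 8.87, 6.57 and 10.4 CPM in the 1 week libraries, against 9.18, 9.66 and 9.84 CPM in the ad libitum libraries. The 1 day libraries lay below the ad libitum libraries and the 1 week libraries lay on both sides. Its fold was 0.768 for 1 day (adjusted p = 0.532) and 0.900 for 1 week (adjusted p = 0.793). Parp9 had a log2 fold change of -0.28 for 1 day and -0.03 for 1 week, and Parp14 had -0.35 for 1 day and -0.32 for 1 week.

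The remaining effectors were close to 0. Samhd1, which breaks down nucleotides needed by viruses, had a log2 fold change of -0.12 ± 0.10 for 1 day and -0.15 ± 0.10 for 1 week. Cmpk2 and Rsad2, neighbours whose products act in the same antiviral nucleotide pathway, had 0.21 ± 0.16 and 0.20 ± 0.23 for 1 day and -0.05 ± 0.16 and -0.10 ± 0.23 for 1 week. Ifi27 was at -0.08 for 1 day and -0.21 for 1 week, and Ifi35 at -0.27 for 1 day and 0.17 for 1 week. The adjusted p of these genes was at least 0.635 in both comparisons.

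**Figure D3:**
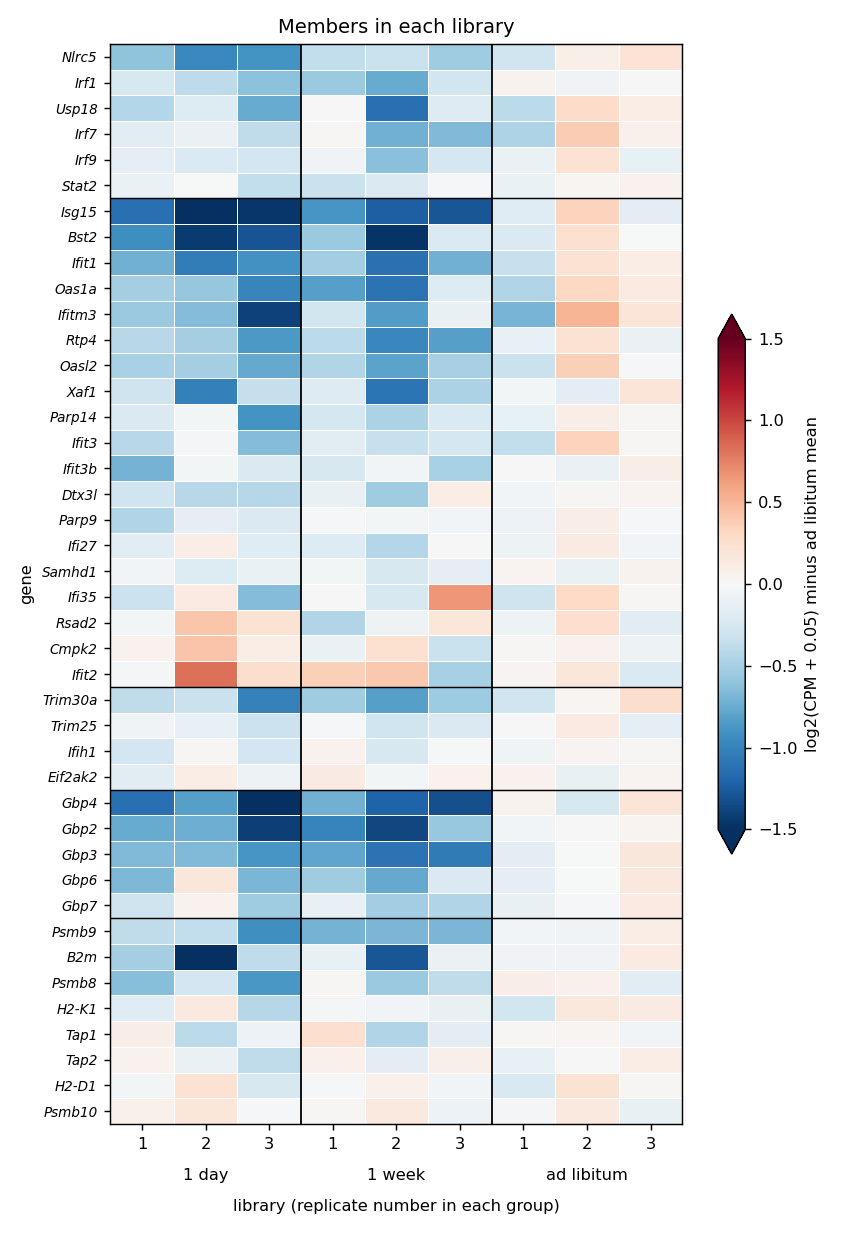
Level of every member in every library as log2(CPM + 0.05) minus the mean of the ad libitum libraries, with colours limited to 1.5 in each direction, columns ordered 1 day, 1 week and ad libitum, and rows grouped as regulators, effectors, sensors, GBPs and antigen presentation from top to bottom. Isg15, Ifit1, Gbp2, Gbp3 and Gbp4 are blue in all 6 fasted libraries, and B2m is dark in 1 day replicate 2 and 1 week replicate 2.

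Of the 6 regulators, all had log2 fold changes below 0 in both fasted groups, with medians of -0.34 for 1 day and -0.41 for 1 week. Irf1 was at 5.69, 5.14 and 4.40 CPM in the 1 day libraries and 4.60, 4.01 and 5.55 CPM in the 1 week libraries, against 7.05, 6.51 and 6.80 CPM in the ad libitum libraries. Nlrc5, the activator of class I genes, was at 1.14, 0.878 and 0.922 CPM in the 1 day libraries and 1.35, 1.39 and 1.20 CPM in the 1 week libraries, against 1.43, 1.88 and 2.04 CPM in the ad libitum libraries. For both genes every fasted library lay below every ad libitum library. The fold of Irf1 was 0.749 for 1 day (log2 fold change -0.42 ± 0.17 SE, adjusted p = 0.525) and 0.695 for 1 week (-0.52 ± 0.17, adjusted p = 0.275). That of Nlrc5 was 0.552 for 1 day (-0.86 ± 0.22, adjusted p = 0.325) and 0.738 for 1 week (-0.44 ± 0.22, adjusted p = 0.496). Nlrc5 was also higher in each 1 week library than in each 1 day library (log2 fold change 0.42, adjusted p = 0.853).

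The subunits of the type I interferon factor differed little. Stat2 was at 20.6, 22 and 17.2 CPM in the 1 day libraries and 17.5, 19.0 and 21.8 CPM in the 1 week libraries, against 20.7, 22.5 and 23.2 CPM in the ad libitum libraries. Irf9 was at 9.25, 8.80 and 8.48 CPM in the 1 day libraries and 9.82, 6.65 and 8.55 CPM in the 1 week libraries, against 9.56, 12 and 9.42 CPM in the ad libitum libraries. Stat2 overlapped in both comparisons, and Irf9 for 1 week only. Their log2 fold changes were -0.15 ± 0.13 and -0.22 ± 0.17 for 1 day (adjusted p = 0.672 and 0.634) and -0.19 ± 0.13 and -0.31 ± 0.17 for 1 week (adjusted p = 0.647 and 0.554). Irf7, which amplifies interferon production, was at 1.93, 2.04 and 1.66 CPM in the 1 day libraries and 2.20, 1.31 and 1.36 CPM in the 1 week libraries, against 1.57, 2.86 and 2.30 CPM in the ad libitum libraries. Its ad libitum libraries spanned those of the 1 day group, and 1 week replicates 2 and 3 lay below them, with a log2 fold change of -0.26 for 1 day (adjusted p = 0.739) and -0.46 for 1 week (adjusted p = 0.601). Usp18, which removes ISG15 from proteins and damps the receptor, had -0.50 ± 0.34 for 1 day and -0.39 ± 0.33 for 1 week.

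Among the 4 sensors and signal helpers, Trim30a, a mouse ubiquitin ligase of a family with close paralogs, was the only gene with an unadjusted p under 0.05. It was at 2.24, 2.32 and 1.43 CPM in the 1 day libraries and 2.02, 1.64 and 2.01 CPM in the 1 week libraries, against 2.40, 3.01 and 3.55 CPM in the ad libitum libraries. The groups did not overlap, and the fold was 0.669 for 1 day (adjusted p = 0.528) and 0.633 for 1 week (adjusted p = 0.342). Ifih1 and Eif2ak2, which detect double-stranded RNA, and Trim25, which supports the RNA sensor RIG-I, had log2 fold changes between -0.18 and -0.04 for 1 day and between -0.18 and 0.05 for 1 week.

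The 8 genes of class I antigen presentation had a median log2 fold change of -0.14 for 1 day and -0.08 for 1 week. Class I molecules display peptides that the immunoproteasome cuts and the TAP transporter carries into the endoplasmic reticulum. The immunoproteasome subunit Psmb9 was at 1.12, 1.14 and 0.761 CPM in the 1 day libraries and 0.883, 0.900 and 0.901 CPM in the 1 week libraries, against 1.43, 1.42 and 1.60 CPM in the ad libitum libraries. Its partner Psmb8 was at 1.66, 2.17 and 1.41 CPM in the 1 day libraries and 2.65, 1.77 and 2.01 CPM in the 1 week libraries, against 2.81, 2.78 and 2.32 CPM in the ad libitum libraries. Psmb9 did not overlap with the ad libitum libraries in either fasted group, and Psmb8 overlapped in the 1 week group. The fold of Psmb9 was 0.678 for 1 day (log2 fold change -0.56 ± 0.22 SE, adjusted p = 0.516) and 0.603 for 1 week (-0.73 ± 0.22, adjusted p = 0.245). That of Psmb8 was 0.663 for 1 day (-0.59 ± 0.23, adjusted p = 0.516) and 0.817 for 1 week (-0.29 ± 0.23, adjusted p = 0.693). The third inducible subunit, Psmb10, was at 19.6 to 22.5 CPM in the 1 day libraries and 18.5 to 21.9 CPM in the 1 week libraries, against 18.3 to 21.8 CPM in the ad libitum libraries.

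Tap1 lies next to Psmb9 and is read in the opposite direction, and the promoter windows of this pair share 275 bases. Tap1 was at 4.61, 3.23 and 4.03 CPM in the 1 day libraries and 5.14, 3.14 and 3.86 CPM in the 1 week libraries, against 4.36, 4.40 and 4.14 CPM in the ad libitum libraries. Unlike Psmb9 it overlapped in both comparisons, with a fold of 0.922 for 1 day (adjusted p = 0.842) and 0.943 for 1 week (adjusted p = 0.916); the difference between these genes was not tested. Tap2 had a log2 fold change of -0.13 ± 0.14 for 1 day and 0.00 ± 0.14 for 1 week.

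B2m encodes the light chain of all class I molecules, and its level followed the libraries that stood apart. It was at 29.1, 13 and 31.7 CPM in the 1 day libraries and 37.9, 16.9 and 38.5 CPM in the 1 week libraries, against 39.6, 39.5 and 45.2 CPM in the ad libitum libraries. The low values were those of 1 day replicate 2 and 1 week replicate 2. The log2 fold change was -0.75 ± 0.37 for 1 day (adjusted p = 0.548) and -0.41 ± 0.37 for 1 week (adjusted p = 0.739), and without those libraries it was -0.44 for 1 day and -0.11 for 1 week. B2m transcripts have 860 bases, and 5 members have a transcript under 1000 bases. These are B2m, Isg15 (756), Bst2 (792), Ifi27 (889) and Ifitm3 (678). Over the 2352 genes tested below that length, the median log2 level relative to the ad libitum mean was -0.12 in 1 day replicate 2 and between -0.04 and 0.04 in the other libraries. The part of transcript length in the values of B2m and the other short members was not tested.

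The heavy chains H2-K1 and H2-D1 did not follow B2m. H2-K1 was at 23.6, 29.8 and 19.9 CPM in the 1 day libraries and 26.3, 26 and 24.9 CPM in the 1 week libraries, against 22, 30.1 and 29.4 CPM in the ad libitum libraries. H2-D1 was at 47.9, 57.7 and 41.5 CPM in the 1 day libraries and 48.9, 52.0 and 47.8 CPM in the 1 week libraries, against 41.9, 57.5 and 50.1 CPM in the ad libitum libraries. All groups overlapped, and 1 day replicate 2, the lowest library of B2m, was the highest of H2-D1. The fold of H2-K1 was 0.900 for 1 day (log2 fold change -0.15 ± 0.16 SE, adjusted p = 0.735) and 0.947 for 1 week (-0.08 ± 0.16, adjusted p = 0.898). That of H2-D1 was 0.984 for 1 day (-0.02 ± 0.15, adjusted p = 0.965) and 0.995 for 1 week (-0.01 ± 0.15, adjusted p = 0.992). Reads of these near-identical genes can be divided between them wrongly.

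Levels were also set per length of transcript. In the ad libitum group B2m was at 48.2 ± 3.82 CPM per kilobase, H2-D1 at 23.7 ± 3.70, Ifi27 at 21.7 ± 1.70, H2-K1 at 17.3 ± 2.86, Psmb10 at 15.1 ± 1.39 and Ifitm3 at 11.5 ± 4.45 (SD, n = 3). From H2-D1 to Ifitm3, each gene overlapped within 1 SD with the next in this order. The lowest were Oas1a at 0.351 ± 0.0960 and Nlrc5 at 0.310 ± 0.0549 CPM per kilobase, which also overlapped within 1 SD. Among the GBPs, the ad libitum level ran from 0.744 ± 0.115 CPM per kilobase for Gbp4 to 2.10 ± 0.217 for Gbp6.

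In 1 week against 1 day, no member had an unadjusted p under 0.05, against 1.69% of all genes on the lower side and 3.53% on the higher side. The test called 0 of 20535 genes (0%), and DESeq2 called 7, none of them a member. The log2 fold change was above 0 for 23 members and below 0 for 19, with a median of 0.02. Nlrc5 and Parp9 alone, 2 of 42 members, did not overlap between these groups, both higher for 1 week. Of all genes, 925 of 20535 were higher without overlap, a share near that of the members. Without both libraries that stood apart the members' median was 0.19 and 6 members had an unadjusted p under 0.05. The share of all genes at that p was not counted without those libraries, so this count has no background beside it.

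The libraries differed in the members as a whole. Ad libitum replicate 2 held the highest value of 16 members and replicate 3 that of 13, whereas ad libitum replicate 1 held that of 2. Of the lowest values, 1 week replicate 2 held 16 and 1 day replicate 3 held 15. The mean deviation of the members from the ad libitum mean was -0.37, -0.31 and -0.58 (log2) in the 1 day libraries and -0.26, -0.56 and -0.32 in the 1 week libraries, against -0.14, 0.11 and 0.03 in the ad libitum libraries. By this mean the fasted libraries all lay below the ad libitum libraries, and 1 day replicate 3 and 1 week replicate 2 lay lowest. The summed CPM of the members overlapped, at 364, 400 and 339 in the 1 day libraries and 388.9, 347 and 371 in the 1 week libraries. In the ad libitum libraries it was 388.0, 446 and 425. Without both libraries that stood apart, the 1 day log2 fold change was 0.01 for Tap1, -0.32 for H2-K1, -0.51 for Ifi35 and -0.70 for Gbp6. The 1 week log2 fold change without them was -0.27 for Ifitm3, -0.16 for Irf9, -0.16 for Psmb8, -0.11 for Usp18, 0.02 for Dtx3l and 0.08 for Tap1. Tap1 thus changed sign in both comparisons and Dtx3l for 1 week. Ifit2, Ifih1 and Psmb10 also changed sign for 1 week, from 0.14, -0.06 and 0.02 to -0.0037, 0.034 and -0.031.

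Members with an ISRE match in the promoter window had lower log2 fold changes than those without. Over the 16 with a match the median was -0.67 for 1 day and -0.44 for 1 week, and over the 17 without it was -0.22 for 1 day and -0.15 for 1 week. Isg15, Bst2, Gbp2, Gbp3 and Ifit1, whose windows are printed above, hold a match, and so do Rsad2 and Eif2ak2, which were near 0. For the GAS letters the medians were -0.35 with and -0.30 without for 1 day, and -0.33 with and -0.28 without for 1 week. These are descriptions of 33 genes, and the difference was not tested.

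Upstream of the members, all 6 interferon receptor genes listed were in the table and the 9 interferon genes listed were not analysed here. The receptor genes had a median log2 fold change of -0.27 for 1 day and -0.14 for 1 week, and all 6 were below 0 in both. All fasted libraries lay below the ad libitum libraries for 3 of 6 (50%) for 1 day and 0 for 1 week, against 10.3% and 11.5% of all genes. An unadjusted p under 0.05 was reached by 1 of 6 (16.7%) for 1 day and 0 for 1 week, where 4.9% of all genes were lower at that p. These counts were not tested. The gene at that p for 1 day was Il10rb, a shared receptor chain, at 5.61 ± 0.553 CPM for 1 day and 6.33 ± 1.62 CPM for 1 week, against 7.88 ± 1.17 CPM in the ad libitum group (SD, n = 3 each). The 10 genes of JAK-STAT signalling and its brakes had a median log2 fold change of -0.22 for 1 day and -0.15 for 1 week, with 7 of 10 below 0 for 1 day and 8 of 10 for 1 week, and none passed the test. Of the 18 further nucleic acid sensors and adaptors in the table, 2 were lower at an unadjusted p under 0.05 for 1 day, and 2 were lower and 1 higher for 1 week. In each comparison 4.9% of all genes were lower at that p. For both fasted groups 5 of 18 (27.8%) were lower, against 5.95% of all genes, and none passed the test. The RNA sensor Dhx58 had the smallest p, at 0.998 ± 0.319 CPM for 1 day and 1.14 ± 0.306 CPM for 1 week, against 1.77 ± 0.132 CPM in the ad libitum group (edgeR adjusted p = 0.310 for both fasted groups).

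A list of 73 other interferon-induced genes had 54 genes tested. For 1 day, 10 of them (18.5%) were lower at an unadjusted p under 0.05, and 47 of 54 were below 0 with a median of -0.30. For 1 week, 4 (7.41%) were lower, a share near the 4.9% of all genes in either comparison, and 35 were below 0 with a median of -0.17. For both fasted groups, 14 (25.9%) were lower, against 5.95% of all genes, and 47 were below 0 with a median of -0.19. None passed the test. Oas2, another oligoadenylate synthetase, was at 0.281 ± 0.0644 CPM for 1 day and 0.383 ± 0.0310 CPM for 1 week, against 0.761 ± 0.279 CPM in the ad libitum group (SD, n = 3 each; adjusted p = 0.130 for both fasted groups). Ly6a, a surface antigen of endothelium, was at 12 ± 0.640 CPM for 1 day and 16.6 ± 3.05 CPM for 1 week, against 19.9 ± 1.28 CPM in the ad libitum group (adjusted p = 0.130). Uba7, the enzyme that activates ISG15, was at 2.37 ± 0.204 CPM for 1 day and 3.34 ± 0.793 CPM for 1 week, against 4.95 ± 1.41 CPM in the ad libitum group (adjusted p = 0.174).

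The constitutive proteasome served as a contrast to the inducible subunits. None of its 14 core genes had an unadjusted p under 0.05 in either fasted group, and the median log2 fold change was 0.08 for 1 day and 0.04 for 1 week. The 23 other class I presentation genes in the table had medians of -0.14 for 1 day and -0.02 for 1 week, where the median of all genes was 0.00. Medians of the 8 class I members were -0.14 for 1 day and -0.08 for 1 week. The smallest p among the 23 was that of Pdia3, a chaperone of class I loading, at 125 ± 12.4 CPM for 1 day and 117 ± 6.67 CPM for 1 week, against 148 ± 12.2 CPM in the ad libitum group (adjusted p = 0.276 for both fasted groups). Class II presentation genes, which microglia and border macrophages use, had a median of -0.84 over 10 genes for 1 day and -0.17 for 1 week. At an unadjusted p under 0.05, 2 of 10 were lower for 1 day and 0 for 1 week, against 4.9% of all genes. For both fasted groups 0 were lower and 1 was higher at that p, where 5.95% of all genes were lower. Among the class II genes, H2-Ab1 was at 0.861 ± 0.246 CPM for 1 day and 1.80 ± 1.18 CPM for 1 week, against 2.29 ± 1.23 CPM in the ad libitum group. H2-DMb2 had a log2 fold change above 0, at 2.00 ± 0.437 CPM for 1 day and 2.06 ± 0.300 CPM for 1 week, against 1.43 ± 0.308 CPM in the ad libitum group (adjusted p = 0.400 for both fasted groups).

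**Figure D4:**
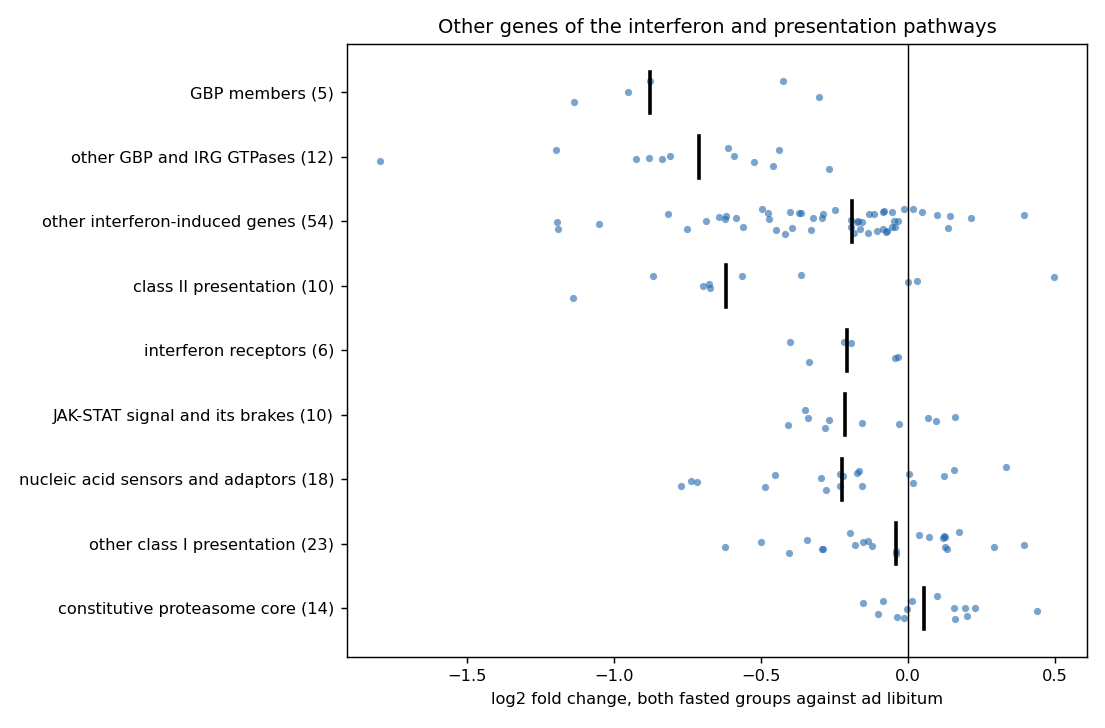
Log2 fold change of both fasted groups against ad libitum for the GBP members and 8 further gene lists (1 point per gene, with the number of genes tested in brackets, scattered vertically for legibility), with the median of each list as a black bar and 0 as a line. The medians of the GBP members (-0.88), the other GBPs and IRGs (-0.71) and class II presentation (-0.62) lie farthest below 0, and that of the constitutive proteasome lies at 0.06. In this comparison 0 class II genes were lower at an unadjusted p under 0.05 (edgeR).

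The cell type marker lists did not all move with the members. The 9 astrocyte markers had a median log2 fold change of 0.10 for 1 day and 0.10 for 1 week. Of them, 1 passed the test for 1 week, where it was higher, and 1 passed for both fasted groups. At an unadjusted p under 0.05, 1 was lower and 1 was higher for 1 day. Medians of border macrophage, meninges and fibroblast, dopaminergic neuron and cortical neuron markers were below 0 for 1 day and above 0 for 1 week. The other lists, microglia, brain endothelium and oligodendrocytes among them, had medians below 0 in both. All 15 microglia markers listed were in the table, and their summed level was 284 to 336 CPM in the 1 day libraries and 252 to 401 CPM in the 1 week libraries, against 402 to 448 CPM in the ad libitum libraries. Every fasted library thus lay below every ad libitum library, 1 week replicate 1 only just. At an unadjusted p under 0.05, 10 of 15 were lower for 1 day and 4 for 1 week, against 4.9% of all genes, and the median log2 fold change was -0.50 for 1 day and -0.39 for 1 week. With 1 library left out at a time the 1 day count ran from 4, without 1 day replicate 3 or ad libitum replicate 3, to 12. The 1 week count ran from 1, without 1 week replicate 2 or ad libitum replicate 3, to 7. Without 1 week replicate 2, the lowest library, the 1 week median was -0.18. Fcrls, a receptor of resident microglia, passed the test for both fasted groups, with a mean of 5.26 CPM for 1 day and 5.31 CPM for 1 week, against 10.9 CPM for ad libitum (edgeR adjusted p = 0.0356). It did not pass with the replicate block, or without 1 day replicate 1 or 3, 1 week replicate 3 or any 1 ad libitum library. The 12 brain endothelium markers summed to 346 to 358 CPM in the 1 day libraries and 306 to 408 CPM in the 1 week libraries, against 362 to 440 CPM in the ad libitum libraries. Here all 1 day libraries lay below the ad libitum libraries, and 1 week replicate 1 lay among them. Of the 12, 4 were lower and 1, the transporter Slco1a4, was higher at an unadjusted p under 0.05 for 1 day. For 1 week 3 were lower, and in each comparison 4.9% of all genes were lower at that p. With 1 library left out at a time, the 1 day count of lower markers ran from 1, without ad libitum replicate 2 or 3, to 7. The 1 week count ran from 1, without ad libitum replicate 2, to 6. Of 9 oligodendrocyte markers, 5 were lower at that p in each of these comparisons, with medians of -0.36 for 1 day and -0.34 for 1 week. With 1 library left out at a time, the count ran from 4 to 6 for 1 day and from 3 to 6 for 1 week. The sums of these markers overlapped, at 9811 to 11613 CPM for 1 day and 10456 to 11870 CPM for 1 week, against 11353 to 13824 CPM for ad libitum. Mag, a protein of the myelin sheath, was at 297 ± 27.2 CPM for 1 day and 295 ± 14.4 CPM for 1 week, against 443 ± 33.1 CPM in the ad libitum group (SD, n = 3 each; edgeR adjusted p = 0.0298 for both fasted groups). Ugt8a, an enzyme of myelin lipid synthesis, passed as well (edgeR adjusted p = 0.0255). Neither passed with the replicate block, or without 1 day replicate 1, 1 week replicate 2 or 3, or any 1 ad libitum library. The part of microglia, endothelium and oligodendrocyte markers in the members' levels was not tested.

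The 7 border macrophage markers summed to 8.72 to 15.1 CPM in the 1 day libraries and 15.4 to 36.4 CPM in the 1 week libraries, against 11.6 to 22.5 CPM in the ad libitum libraries. The 12 markers of meninges and fibroblasts summed to 104 to 202 CPM in the 1 day libraries and 144 to 618 CPM in the 1 week libraries, against 138 to 370 CPM in the ad libitum libraries. Both sums were highest in 1 week replicate 3, the library with the highest Ifi35. Of 11 lymphocyte markers 4 were in the table, with sums of 2.31 to 3.28 CPM in the 1 day libraries and 2.40 to 3.60 CPM in the 1 week libraries, against 2.72 to 2.98 CPM in the ad libitum libraries. Of 7 neutrophil and monocyte markers 2 were in the table, with sums of 1.29 to 1.88 CPM in the 1 day libraries and 1.64 to 2.02 CPM in the 1 week libraries, against 1.91 to 2.06 CPM in the ad libitum libraries. The defining T cell gene Cd3e was not analysed here.

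**Figure D5:**
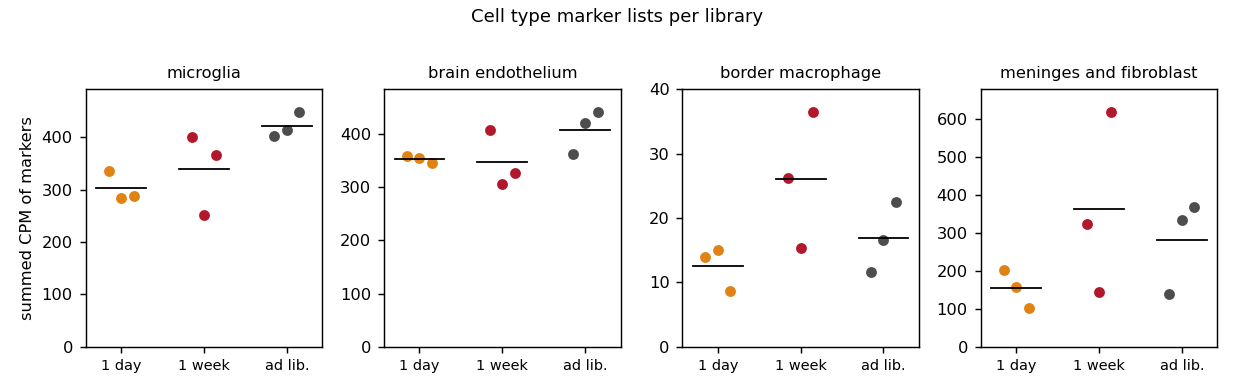
Summed CPM of 4 cell type marker lists in each library (points) with the group mean (line), for the 1 day, 1 week and ad libitum groups from left to right, on linear axes from 0. The microglia sums lie between 252 and 401 CPM in the fasted libraries and between 402 and 448 CPM in the ad libitum libraries, whereas for the other lists some fasted libraries reach into the ad libitum range.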

How the data were processed

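RNA-seq libraries of substantia nigra lysate were made, per the labels' protocols, from polyA RNA with a directional kit. Per the submitters' processing notes, the authors used Salmon, DESeq2 1.40.2 and the builds GRCm39 and mm39, with no Salmon version or annotation named. Values in the table the authors deposited are estimated counts of each gene, as whole numbers not scaled to depth, and no row has a mean under 9.89 counts. Salmon divides reads between similar transcripts, so close paralogs are uncertain. All 9 columns matched a sample's labels, and no libraries were duplicates (lowest chi-square per gene of a pair 26.5).

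With edgeR 4.0.16 (R 4.3.3), counts were scaled by TMM, filterByExpr (minimum count 10, minimum total 15) left 20535 genes, and a robust quasi-likelihood model by group was fitted to all 9 libraries. Tests were two-sided with Benjamini-Hochberg adjustment over all genes and a threshold of 0.05. SD is over 3 libraries, and SE was derived from the F statistic. Alternatives used DESeq2 1.42.0 and limma 3.58.1. Transcript lengths came from GENCODE M21 by gene identifier, and promoters and gene order from RefSeq GRCm38.p6.

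The members and lists were chosen with earlier results of these data known. Values per library are given for 18 members that define the roles and for any other member with an unadjusted p under 0.05, and up to 3 genes are named per further list. Fcrls, Cd3e, Slco1a4, Mag, Ugt8a and the genes given with a range or a fold change alone were named after their values were seen. The labels do not say whether a replicate number pairs libraries. The deviations of same-numbered libraries correlated at 0.112 to 0.489 between 1 day and 1 week and at -0.187 to 0.210 with ad libitum. Those of different-numbered libraries correlated at -0.385 to 0.283 between 1 day and 1 week. There, 1 day replicate 1 correlated better with 1 week replicate 3 (0.278), and 1 day replicate 3 with 1 week replicate 1 (0.283), than with its own number. No replicate term was used. The fit was tested on simulated counts, in which DESeq2 called more unchanged genes than edgeR or voom.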

Additional observations from a re-analysis of the deposited data

How the results depend on the processing

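No member changed sides of the threshold under RLE size factors, without the low-count filter, with the replicate number as a block or with only the compared libraries. The replicate block, in which the numbers may or may not mark real pairs (all same-numbered correlations were over 0.1 only between 1 day and 1 week), left 2, 32, 0 and 54 genes changed for 1 day, 1 week, 1 week against 1 day and both fasted groups, in place of 12, 63, 0 and 80, and 0 members. DESeq2 gave 186, 464, 7 and 470 genes and 3, 3, 0 and 5 members. Voom gave 93, 296, 0 and 370 genes and 1, 3, 0 and 4 members, with 1 member at an unadjusted p under 0.05 for 1 week against 1 day. Only the compared libraries gave 26, 155 and 0 genes. Without both libraries that stood apart, 50 genes changed for 1 day and 134 for both fasted groups. For 1 week against 1 day, 6 members then had an unadjusted p under 0.05, and the members' median log2 fold change was 0.19. The share of all genes at that p was not counted without those libraries. The filter of 1 CPM gave 1 member, Gbp3, for both fasted groups.

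Leaving out each library in turn gave 0 to 22, 8 to 121, 0 to 3 and 2 to 124 genes changed, and 0, 0, 0 and 0 to 1 members. Members at an unadjusted p under 0.05 numbered 7 to 18, 8 to 14, 0 to 3 and 11 to 20. Their median log2 fold change ran from -0.44 to -0.26 for 1 day, -0.45 to -0.22 for 1 week, -0.08 to 0.11 for 1 week against 1 day and -0.40 to -0.28 for both fasted groups. No genes passed for 1 day without any 1 of the ad libitum libraries. Counts of the GBP, IRG and cell type lists, and values of all members without the libraries that stood apart, were added after seeing the data. These gave 5 of 5 GBP members at an unadjusted p under 0.05 with voom, for 1 day and for both fasted groups, in place of 3. The cause of these shifts was not tested. Isg15 and Oas1a rest on few reads.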
